A study of Rattus norvegicus with 12 samples.

Results

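The serotonin receptors examined here were 10 genes, Htr1a, Htr1b, Htr1d, Htr2a, Htr2c, Htr3a, Htr4, Htr5a, Htr6 and Htr7, measured in the striatum of rats that had lost the dopamine fibres on one side. They were found by matching the RefSeq accession of each probe to a gene symbol, which gave 11 probes out of 30367 on the array, and Htr2c was the one gene with 2 probes. Of the 10 genes, 8 were above background and could be compared between groups. Htr1a and Htr7 were each above background on 1 array only and were left out of the tests.

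RNA came from male Wistar rats, whose age is not given in the sources used here. All had received 6-hydroxydopamine, a toxin taken up by catecholamine neurons, in the left medial forebrain bundle, and were kept if they made at least 7 turns per minute after methamphetamine (METH) at 3 mg/kg. The 4 groups, each of 3 animals and 3 single-colour Agilent arrays, were the lesioned side after combined treatment (L-DOPA 100 mg/kg, zonisamide 50 mg/kg), the lesioned side after L-DOPA alone (100 mg/kg), the lesioned side after saline, and the non-lesioned side after saline. Injections were intraperitoneal, once a day for 7 days, with the decarboxylase inhibitor benserazide 30 min before L-DOPA and zonisamide 30 min after it. L-DOPA is converted to dopamine in the brain. Zonisamide, an anticonvulsant, is also prescribed in Parkinson's disease. The non-lesioned side belongs to a rat with a lesion on the other side, no group received zonisamide alone, and no drug-treated rat's non-lesioned side was among these samples. The difference between L-DOPA and non-lesioned saline therefore holds the lesion and the drug together, and the 2 cannot be told apart in it. The labels do not say whether the lesioned and the non-lesioned saline samples came from the same rats.

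Serotonin reaches the striatum in axons from the raphe nuclei and acts there on several families of receptors. The 5-HT1 and 5-HT5 receptors couple to the inhibitory G proteins that lower cyclic AMP, the 5-HT2 receptors couple to Gq and phospholipase C, the 5-HT4, 5-HT6 and 5-HT7 receptors couple to stimulatory G proteins that raise cyclic AMP, and 5-HT3 receptors are ion channels. In a striatum without dopamine fibres, serotonin axons take up L-DOPA, convert it to dopamine with the decarboxylase Ddc and release it, and in rats drugs that activate 5-HT1A and 5-HT1B receptors reduce the abnormal movements that L-DOPA causes.

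The promoters of Htr1b and Htr1d are shown because these 2 receptors had the lowest p-values of the tested members for L-DOPA against non-lesioned saline, in opposite directions. They are the 250 bases before the annotated start in RefSeq, build GRCr8, with Htr1b on the minus strand at chr8:91414816-91415065 and Htr1d on the plus strand at chr5:153939485-153939734.
Htr1b: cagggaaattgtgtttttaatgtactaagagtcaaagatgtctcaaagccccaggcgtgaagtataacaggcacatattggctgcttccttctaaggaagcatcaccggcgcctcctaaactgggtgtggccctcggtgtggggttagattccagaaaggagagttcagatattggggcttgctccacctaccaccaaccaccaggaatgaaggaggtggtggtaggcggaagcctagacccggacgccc
Htr1d: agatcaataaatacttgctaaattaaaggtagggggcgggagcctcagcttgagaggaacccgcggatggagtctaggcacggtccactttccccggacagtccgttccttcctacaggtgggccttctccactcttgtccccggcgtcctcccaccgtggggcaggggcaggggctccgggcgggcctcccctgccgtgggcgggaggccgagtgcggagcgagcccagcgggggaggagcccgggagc
RefSeq promoters matched 6 of the 10 genes (Htr1b, Htr1d, Htr2c, Htr5a, Htr6 and Htr7), and their windows were searched on both strands for the cyclic AMP response element TGACGTCA, its core TGACG, which lies within it, and the AP-1 site TGANTCA. Matches were to be in capitals, and neither printed window held one of the 3 motifs. Htr5a and Htr7 each held 1 copy of TGACG, and none of the 6 windows held TGACGTCA or TGANTCA. Of all 33469 promoter windows of the same length, 1.59% held TGACGTCA, 18.2% held TGACG and 6.34% held TGANTCA. GC made up 52.4% of the Htr1b window and 66.8% of the Htr1d window.

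On the arrays, 67.8% to 74.0% of probes were well above background, and the 75th percentile of intensity lay between 793 and 1737. The spread of replicate spots on an array was 3.74% to 27.8%, and 21.8% to 22.6% on the 3 non-lesioned arrays. Levels below are log2 signal minus the 75th percentile of the same array, so a level can be compared between arrays for one probe but not between probes. Markers of striatal spiny neurons were above background on all 12 arrays for 12 of 12 genes. Markers of choroid plexus, the tissue that makes cerebrospinal fluid, varied widely within groups. Their mean level lay between -4.35 and -0.39 with L-DOPA and zonisamide, between -3.10 and 0.79 with L-DOPA, between -4.95 and -3.26 after lesioned saline, and between -4.20 and 1.54 after non-lesioned saline. Replicate 3 of L-DOPA with zonisamide, replicates 2 and 3 of L-DOPA and replicate 3 of non-lesioned saline stood high. As a check of the drug, Pdyn, the prodynorphin gene that L-DOPA is known to raise in the denervated striatum, was at 3.89, 4.12 and 4.53 with L-DOPA and at 2.48, 2.78 and 2.03 after lesioned saline (1.75 ± 0.22 log2 higher, limma's moderated standard error, adjusted p = 0.0151).

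**Figure D1:**
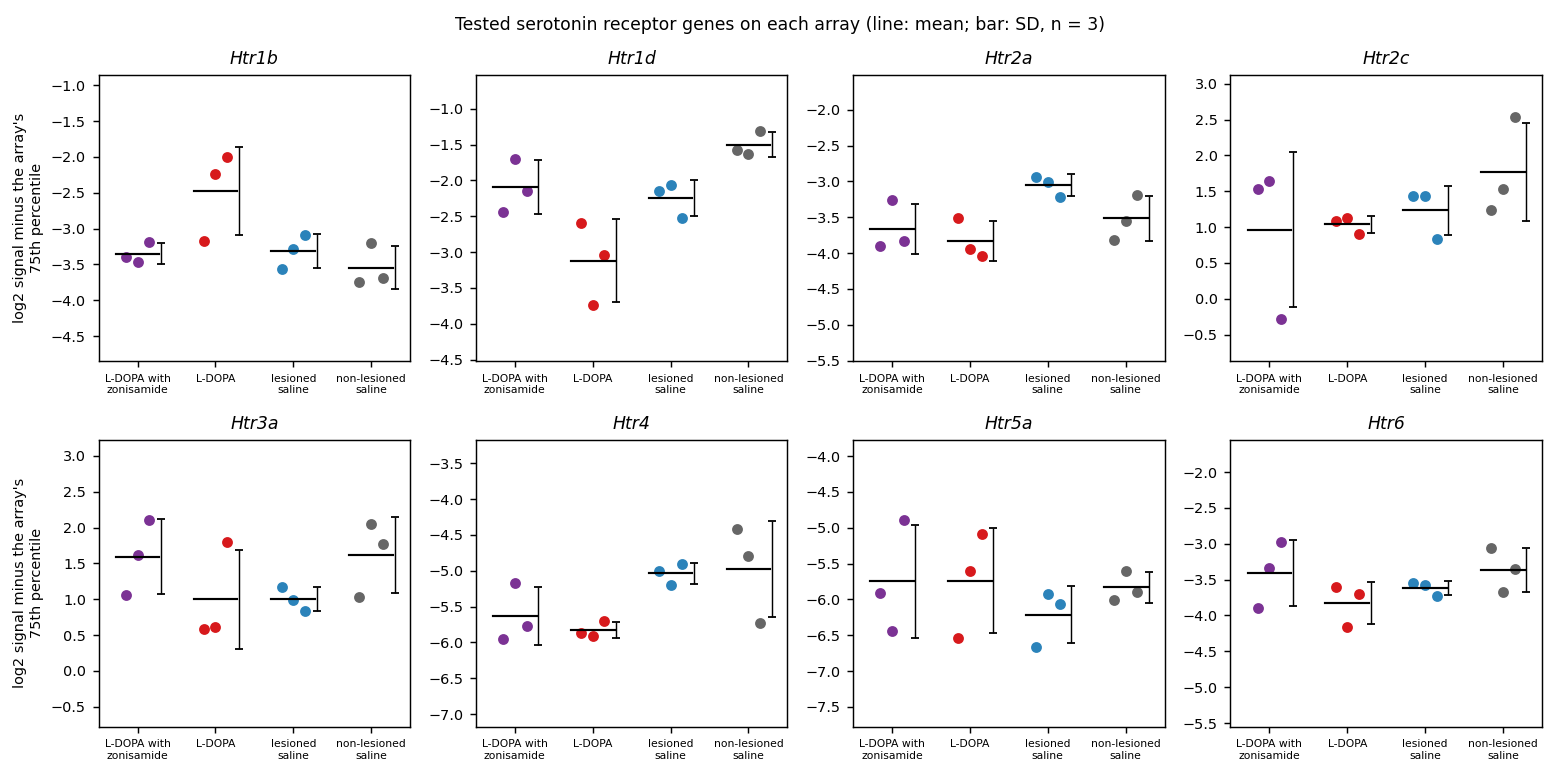
Level of each of the 8 tested receptor genes on each of the 12 arrays, as log2 signal minus the array's 75th percentile, with 3 arrays a group in replicate order, the group mean as a line and the SD as a bar. Htr1d lies below every other group's arrays with L-DOPA, and all 3 non-lesioned saline arrays lie above the rest; for Htr1b, replicates 2 and 3 of L-DOPA lie above all other arrays and replicate 1 lies among them.

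Htr1d, which encodes an inhibitory receptor found on nerve terminals, had the only difference that passed the test among all members and comparisons. Its level was -2.44, -1.69 and -2.15 with L-DOPA and zonisamide, -2.59, -3.74 and -3.04 with L-DOPA, -2.14, -2.07 and -2.53 after lesioned saline, and -1.57, -1.64 and -1.31 after non-lesioned saline. The non-lesioned arrays were the highest of all 12, the L-DOPA arrays were the lowest, and lesioned saline and L-DOPA with zonisamide overlapped each other in between. Htr1d fell by 1.62 ± 0.29 on the log2 scale with L-DOPA relative to non-lesioned saline, which is 3.07-fold lower (95% interval of the log2 difference -2.27 to -0.96, adjusted p = 0.0382 by limma over 19412 features). It ranked 125 by p among those features. In that comparison 1.16% of all features were called in either direction and 0.288% were called lower, and Htr1d was the 1 call among the 8 tested members.

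The call on Htr1d was near the threshold. Over 15 other settings of the analysis the adjusted p lay between 0.0317 and 0.238 and the difference between -1.71 and -1.25, always lower with L-DOPA, and 7 of the 15 kept the call. With each array left out in turn the difference lay between -1.88 and -1.31 and the adjusted p between 0.0172 and 0.121. The call was kept without replicate 1 of L-DOPA and without replicate 1 or 2 of L-DOPA with zonisamide, and it was lost without any one of the other arrays, with adjusted p = 0.0508 without replicate 3 of L-DOPA with zonisamide, 0.121 and 0.117 without replicates 2 and 3 of L-DOPA, 0.0649, 0.0674 and 0.0533 without replicates 1, 2 and 3 of lesioned saline, and 0.0840, 0.0818 and 0.0949 without replicates 1, 2 and 3 of non-lesioned saline. Taken slide by slide, the Htr1d difference was -1.02 on slide 1 and -1.40 on slide 3 (log2, 1 array a group). With slide as a fixed block the difference was -1.49, with adjusted p = 0.238. Replicate 3 of non-lesioned saline was alone on slide 4, and replicate 3 of lesioned saline alone on slide 5. These arrays therefore carried no weight in the group differences of that fit.

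The steps between the groups in that order did not pass the test for Htr1d. Lesioned saline was -0.74 ± 0.29 relative to non-lesioned saline (adjusted p = 0.564), L-DOPA was -0.88 ± 0.29 relative to lesioned saline (adjusted p = 0.286), and L-DOPA with zonisamide was 1.03 ± 0.29 relative to L-DOPA (adjusted p = 0.173). In each of these 3 comparisons the groups did not overlap, which held for 17%, 22.4% and 17.3% of all features in the same order. The gap was narrowest between L-DOPA and lesioned saline, whose nearest arrays were at -2.59 and -2.53. L-DOPA with zonisamide differed from lesioned saline by 0.15 (95% interval -0.50 to 0.80), and the arrays overlapped. Between L-DOPA and lesioned saline the difference was -0.44 on slide 1 and -1.67 on slide 2. The zonisamide difference also varied between slides that held both drug groups, with 0.15 on slide 1, 2.04 on slide 2 and 0.88 on slide 3.

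Some markers of other cell types moved with the same groups. The mean of the 6 vascular markers lay between -2.06 and -1.74 with L-DOPA and zonisamide, between -1.31 and -0.98 with L-DOPA, between -1.60 and -1.32 after lesioned saline, and between -2.06 and -1.67 after non-lesioned saline, and all 6 were above background on all 12 arrays. Relative to non-lesioned saline, 6 of the 6 were higher with L-DOPA, 5 at an unadjusted p under 0.05 and none at an adjusted one. Of all features, 14.1% had an unadjusted p under 0.05 with limma in that comparison and 1.16% an adjusted one. The mean of the 6 microglial markers lay between 0.08 and 0.16 with L-DOPA and zonisamide, between 0.48 and 0.84 with L-DOPA, between 0.34 and 0.70 after lesioned saline, and between -0.26 and 0.47 after non-lesioned saline, and all 6 were above background on all 12 arrays. Spiny neuron markers overlapped, with means of 2.22 to 2.79, 2.31 to 2.51, 2.40 to 2.51 and 2.46 to 2.80 in the same order of groups. Astrocyte markers lay at 1.37 to 1.97, 1.71 to 2.14, 1.64 to 2.00 and 1.36 to 2.14, and ependymal markers at -0.69 to 0.05, -0.66 to -0.57, -0.64 to 0.03 and -0.77 to -0.07. Cholinergic interneuron markers lay at -1.86 to -1.56, -2.03 to -1.45, -1.54 to -1.12 and -1.76 to -1.25, and those of other interneurons at -0.48 to 1.34, -0.48 to 0.28, -0.12 to 0.01 and -0.31 to 0.38. Cortical neuron markers lay at -2.09 to -0.90, -2.17 to -0.33, -2.09 to -0.94 and -2.48 to -1.98. Between L-DOPA and non-lesioned saline, the ranges of the vascular and microglial means lay apart and those of the other lists named here overlapped. The microglial ranges nearly met, at 0.475 with L-DOPA and 0.466 after non-lesioned saline. In that comparison 5 of the 6 microglial markers were higher with L-DOPA and 1 lower. With limma, 2 had an unadjusted p under 0.05 and none an adjusted one. The part of the vascular and microglial markers in the Htr1d difference was not tested. With the choroid plexus mean as a covariate the Htr1d difference was -1.56 (adjusted p = 0.0701), and with Ttr, the transthyretin gene that marks choroid plexus, it was -1.52 (adjusted p = 0.109). In tissue RNA of this kind, fewer cells of a type and less RNA per cell cannot be told apart.

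**Figure D2:**
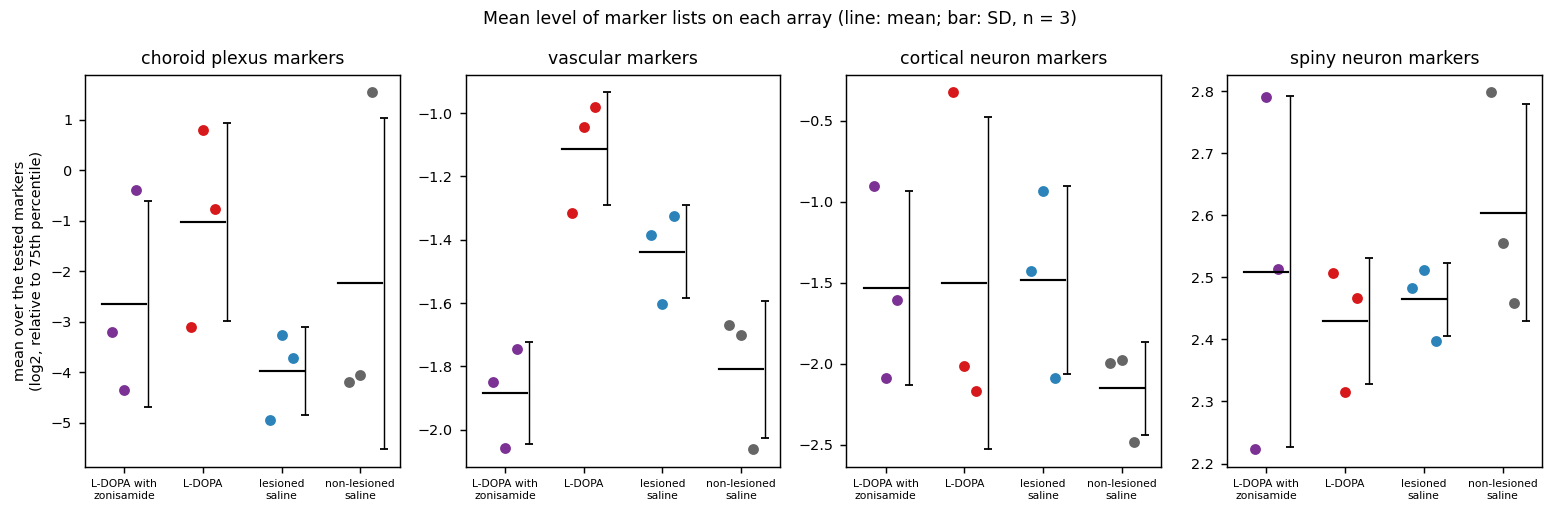
Mean log2 level over the tested markers of 4 cell types on each array, relative to the array's 75th percentile, with 3 arrays a group in replicate order, the group mean as a line and the SD as a bar. Choroid plexus markers spread over several log2 units within groups, and vascular markers are higher on the 3 L-DOPA arrays (-1.31 to -0.98) than on the arrays of L-DOPA with zonisamide (-2.06 to -1.74).

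Htr1b encodes the inhibitory receptor on serotonin terminals and on the terminals of spiny neurons. Its level was -3.40, -3.46 and -3.18 with L-DOPA and zonisamide, -3.17, -2.24 and -2.01 with L-DOPA, -3.56, -3.28 and -3.09 after lesioned saline, and -3.74, -3.20 and -3.69 after non-lesioned saline. Replicates 2 and 3 of L-DOPA stood above all other arrays, while replicate 1 lay within the range of lesioned saline. The mean with L-DOPA was 1.07 ± 0.29 log2 above non-lesioned saline (2.10-fold, adjusted p = 0.120) and 0.84 ± 0.29 above lesioned saline (adjusted p = 0.300). L-DOPA with zonisamide was -0.88 ± 0.29 relative to L-DOPA (adjusted p = 0.239). Those 2 groups did not overlap, which held for 17.3% of all features. None of these differences passed the test.

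For Htr1b, 1 array decided the side of the threshold. Without replicate 1 of L-DOPA, Htr1b passed in all 3 comparisons with L-DOPA, at -1.22 for L-DOPA with zonisamide against L-DOPA (adjusted p = 0.0381), at 1.18 for L-DOPA against lesioned saline (adjusted p = 0.0463) and at 1.42 against non-lesioned saline (adjusted p = 0.0192). Calls over all 19412 features rose as well without that array. In the same order they were 253, 210 and 350, against 93, 84 and 225 with all arrays. Within slides the zonisamide differences were -0.23 on slide 1, -1.22 on slide 2 and -1.18 on slide 3. The cortical neuron marker Slc17a7 also set replicate 1 of L-DOPA apart from the other L-DOPA arrays. Slc17a7, the vesicular glutamate transporter of cortical neurons, was at -4.60 on it, against -8.45 and -7.98 on replicates 2 and 3 of L-DOPA, where it was not above background. Slc17a7 was also above background on replicate 1 of L-DOPA with zonisamide, at -5.10, and on replicate 2 of lesioned saline, at -6.08. On those arrays Htr1b was at -3.40 and -3.28. The choroid plexus mean was at -3.10 on replicate 1 of L-DOPA, against 0.79 and -0.77 on replicates 2 and 3. It also stood high at -0.39 on replicate 3 of L-DOPA with zonisamide and at 1.54 on replicate 3 of non-lesioned saline, where Htr1b was at -3.18 and -3.69. The vascular markers given above were highest with L-DOPA as well, and the part of any of these cells in the Htr1b levels was not tested.

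Htr1a, the autoreceptor on serotonin cell bodies, was above background on replicate 3 of lesioned saline alone. It was at -7.40, -9.35 and -8.76 with L-DOPA and zonisamide, -8.39, -8.80 and -8.71 with L-DOPA, -8.05, -8.73 and -5.62 after lesioned saline, and -8.05, -8.66 and -9.08 after non-lesioned saline. The value of -5.62 averaged spots at -8.29 and -2.94, so that 1 spot carried it. Htr7 was above background on replicate 1 of L-DOPA with zonisamide alone, at -6.15, and lay between -8.57 and -7.02 on the other 11 arrays. No fold or test is given for either gene.

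Htr2a, the Gq-coupled receptor best known from cortical neurons, was at -3.90, -3.26 and -3.83 with L-DOPA and zonisamide, -3.51, -3.94 and -4.04 with L-DOPA, -2.93, -3.00 and -3.22 after lesioned saline, and -3.82, -3.54 and -3.18 after non-lesioned saline. All 3 lesioned saline arrays lay above both drug groups and overlapped the non-lesioned side. Of all features, 22.4% did not overlap between L-DOPA and lesioned saline, and 18.1% between L-DOPA with zonisamide and lesioned saline. L-DOPA was -0.78 ± 0.23 relative to lesioned saline (adjusted p = 0.229), and L-DOPA with zonisamide was -0.61 ± 0.23 relative to lesioned saline (adjusted p = 0.656). The drug groups differed by 0.17 (95% interval -0.35 to 0.69). Slc17a7, checked as a marker of cortical tissue, was above background on 3 arrays, namely replicate 1 of L-DOPA with zonisamide, replicate 1 of L-DOPA and replicate 2 of lesioned saline. On those arrays Htr2a was at -3.90, -3.51 and -3.00, the lowest, the highest and the middle value of their groups. No probe matched Tbr1, another cortical marker.

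Htr2c, the Gq-coupled receptor abundant in choroid plexus and also made by striatal neurons, had 2 probes, which differed over zonisamide. The brighter probe, which stood for the gene, was at 1.53, 1.64 and -0.28 with L-DOPA and zonisamide, 1.09, 1.12 and 0.90 with L-DOPA, 1.43, 1.43 and 0.83 after lesioned saline, and 1.23, 1.53 and 2.54 after non-lesioned saline. The low value of -0.28 averaged spots at -2.34 and 1.78, a gap of 4.13 log2 units, whereas the median gap between spots of the tested member probes was 0.20. L-DOPA with zonisamide was -0.07 ± 0.49 relative to L-DOPA, and without that array it was 0.55 (adjusted p = 0.627). The dimmer probe was at -4.67, -4.28 and -4.11 with L-DOPA and zonisamide, -5.35, -4.98 and -5.67 with L-DOPA, -4.60, -4.85 and -5.53 after lesioned saline, and -5.20, -4.23 and -3.94 after non-lesioned saline. All 3 of its arrays with zonisamide lay above the L-DOPA arrays (0.98 ± 0.35 log2, adjusted p = 0.283 over 21469 probes). Between those groups 17.3% of the 19412 features did not overlap. Relative to non-lesioned saline both probes were lower with L-DOPA, by means of -0.88 ± 0.35 for the dimmer (adjusted p = 0.303) and -0.73 ± 0.49 for the brighter (adjusted p = 0.559), and neither passed.

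The choroid plexus markers varied over the same arrays as Htr2c. Ttr was at 4.28, 2.72 and 6.67 with L-DOPA and zonisamide, 4.31, 7.27 and 6.89 with L-DOPA, -0.74, 4.35 and 3.30 after lesioned saline, and 2.32, 3.05 and 6.73 after non-lesioned saline. Replicate 3 of non-lesioned saline was high for Ttr and highest for both Htr2c probes, at 2.54 for the brighter and -3.94 for the dimmer. Replicate 3 of L-DOPA with zonisamide, also high for Ttr, was next highest for the dimmer probe, at -4.11, and lowest for the brighter, at -0.28. Replicates 2 and 3 of L-DOPA were highest for Ttr and lay in the lower range of both Htr2c probes. The part of choroid plexus in the Htr2c levels was not tested. Sostdc1 and Kl, also choroid plexus markers, were highest on replicate 3 of non-lesioned saline, at 3.39 and -0.60, where both Htr2c probes were highest. On replicate 2 of L-DOPA they were at 2.63 and -1.40, and the brighter Htr2c probe was at 1.12. On replicate 1 of non-lesioned saline they were at -4.94 and -7.95, and that probe was at 1.23.

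**Figure D3:**
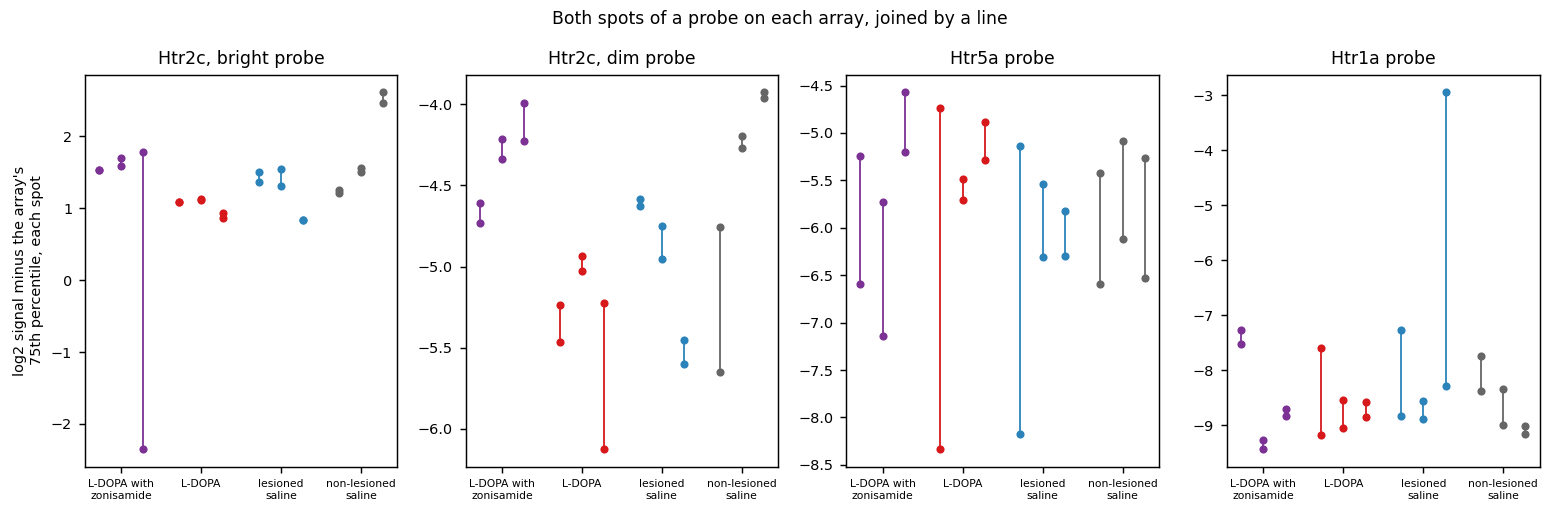
Both spots of a probe on each array, joined by a line, as log2 signal minus the array's 75th percentile, for the 2 Htr2c probes and the Htr5a and Htr1a probes. The spots lie far apart on replicate 3 of L-DOPA with zonisamide for the brighter Htr2c probe (-2.34 and 1.78), on replicate 1 of L-DOPA and of lesioned saline for Htr5a, and on replicate 3 of lesioned saline for Htr1a (-8.29 and -2.94).

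Htr3a encodes the subunit without which 5-HT3 channels do not form. It was at 1.06, 1.61 and 2.11 with L-DOPA and zonisamide, 0.59, 0.61 and 1.80 with L-DOPA, 1.17, 1.00 and 0.84 after lesioned saline, and 1.03, 2.05 and 1.77 after non-lesioned saline. All groups overlapped. L-DOPA with zonisamide was 0.59 ± 0.39 relative to L-DOPA (adjusted p = 0.598), and lesioned saline was -0.61 ± 0.39 relative to non-lesioned saline (adjusted p = 0.673). On the slides that carried both drug groups, the Htr3a zonisamide difference was 0.47, 1.00 and 0.31 on slides 1, 2 and 3, all in one direction. With slide as a fixed block its standard error was 0.19 and the adjusted p = 0.278, and with the replicate block the adjusted p was 0.538, so the comparison did not pass in these fits either. L-DOPA and lesioned saline had almost the same mean in the main fit, with a 95% interval of the difference of -0.87 to 0.86. That difference depended on the processing. Over 16 other settings it lay between -0.92 and 0.03, and the lowest adjusted p was 0.256 with limma.

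Among the receptors that raise cyclic AMP, Htr4 was at -5.95, -5.17 and -5.78 with L-DOPA and zonisamide, -5.86, -5.91 and -5.70 with L-DOPA, -5.01, -5.20 and -4.90 after lesioned saline, and -4.42, -4.80 and -5.72 after non-lesioned saline. The L-DOPA arrays lay close together and below all 3 lesioned saline arrays, and the non-lesioned arrays spread over both. Between L-DOPA and lesioned saline 22.4% of all features did not overlap. On replicates 2 and 3 of L-DOPA only 1 of the 2 Htr4 spots was above background. The same held on replicates 2 and 3 of non-lesioned saline and on replicate 3 of L-DOPA with zonisamide. L-DOPA was -0.79 ± 0.31 relative to lesioned saline (adjusted p = 0.371) and -0.85 ± 0.31 relative to non-lesioned saline (adjusted p = 0.256), so that neither difference passed. Zonisamide made a difference of 0.19 to L-DOPA (95% interval -0.50 to 0.89).

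Htr6, which spiny neurons make and which also couples to the stimulatory G protein, was at -3.90, -3.34 and -2.98 with L-DOPA and zonisamide, -3.61, -4.15 and -3.70 with L-DOPA, -3.55, -3.58 and -3.73 after lesioned saline, and -3.06, -3.67 and -3.35 after non-lesioned saline. Its groups overlapped in every comparison, and its differences lay between -0.46 and 0.41.

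Htr5a, an inhibitory receptor, had the probe whose spots lay far apart on the most arrays. It was at -5.92, -6.44 and -4.89 with L-DOPA and zonisamide, -6.53, -5.60 and -5.09 with L-DOPA, -6.66, -5.92 and -6.06 after lesioned saline, and -6.01, -5.60 and -5.89 after non-lesioned saline. Spots lay 3.60 apart on replicate 1 of L-DOPA and 3.03 apart on replicate 1 of lesioned saline. Only 1 of the 2 Htr5a spots was above background on every array of both saline groups. The same held on replicate 1 of L-DOPA and on replicates 1 and 2 of L-DOPA with zonisamide. All groups overlapped, and the differences lay between -0.38 and 0.47 with standard errors of 0.44. On the arrays where Slc17a7 was above background, Htr5a was at -5.92, -6.53 and -5.92.

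**Figure D4:**
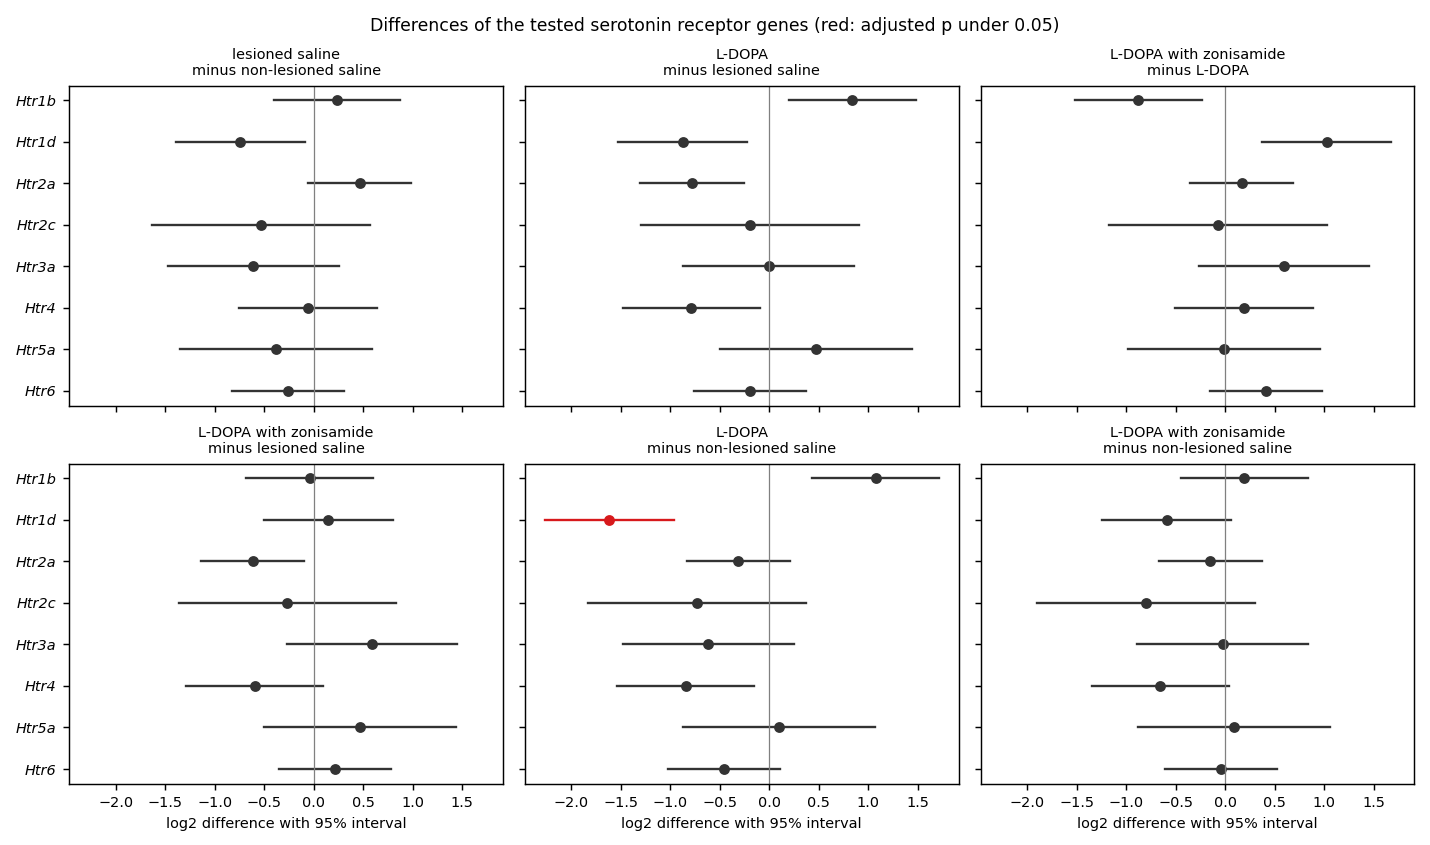
Log2 difference of each of the 8 tested receptor genes in the 6 comparisons of groups, as a point with its 95% interval from limma. The 1 interval drawn in red is Htr1d for L-DOPA minus non-lesioned saline (-2.27 to -0.96), the only member with an adjusted p under 0.05.

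Read as a set, the 8 tested members gave the 1 call on Htr1d. For lesioned against non-lesioned saline 0 of 8 members were called, as were 0% of all features, and 1 of 8 had an unadjusted p under 0.05 with limma, against 1646 of 19412 features (8.48%). The arrays of the groups did not overlap for 1 member (Htr1d), against 17% of all features. The members' median difference was -0.32 and that of all features 0.05. For L-DOPA against lesioned saline 0 of 8 members were called, against 0.433% of all features. At an unadjusted p under 0.05, 4 of 8 stood out in that comparison, Htr1b higher and Htr1d, Htr2a and Htr4 lower, against 11.3% of all features. The groups did not overlap for 3 of 8 (Htr1d, Htr2a and Htr4), against 22.4%, and the median difference was -0.20, against -0.03 over all features. For L-DOPA with zonisamide against L-DOPA 0 of 8 were called, against 0.479%, and 2 of 8 had an unadjusted p under 0.05, Htr1d higher and Htr1b lower, against 12.4%. Those 2 were also the members without overlap, against 17.3% of all features. The median difference there was 0.18, against -0.03 over all features.

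The remaining comparisons gave the same kind of counts. For L-DOPA with zonisamide against lesioned saline 0 of 8 members and 0% of all features were called, and Htr2a was the 1 member with an unadjusted p under 0.05, against 1424 features (7.34%), and the 1 without overlap, against 18.1%. For L-DOPA against non-lesioned saline 3 of 8 members had an unadjusted p under 0.05, Htr1b higher and Htr1d and Htr4 lower, against 14.1% of all features. The groups did not overlap for 3 of 8 (Htr1b, Htr1d and the brighter Htr2c probe), against 18.9%, and the median difference was -0.54, against 0.04. For L-DOPA with zonisamide against non-lesioned saline 0 of 8 members and 0% of features were called, and 0 of 8 members had an unadjusted p under 0.05, against 822 features (4.23%). Htr1d alone did not overlap there, against 7.19% of all features. The comparisons share groups, and the members share arrays, so these counts are not independent of each other. A moderated F test for any difference among the 4 groups called 0.273% of all features and none of the 8 members, with Htr1d nearest at adjusted p = 0.124. It gave an unadjusted p under 0.05 to 4 of the 8 (Htr1b, Htr1d, Htr2a and Htr4), against 11.8% of all features.

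The wider serotonin pathway was followed with a list of 25 genes for synthesis, transport, breakdown and signalling, of which 21 were tested. Htr3b, Slc6a4 and Fev did not pass the filter, and no probe matched Gnal. None of the 21 was called in any comparison, and the median difference lay between -0.04 and 0.11 over the 6 comparisons. In lesioned against non-lesioned saline, 1 of 21 had an unadjusted p under 0.05 with limma, against 8.48% of all features. This was Mpdz, a scaffold protein that binds Htr2c, at -0.45 by its brighter probe. Its dimmer probe went the other way, averaging -3.24 after lesioned saline and -3.59 after non-lesioned saline. L-DOPA against lesioned saline had 1 (Arrb2, at 0.42), against 11.3% of all features. L-DOPA with zonisamide against L-DOPA had 1 (Tph2, at -1.08), against 12.4%. There were 0 in L-DOPA with zonisamide against lesioned saline, against 7.34% of all features. L-DOPA against non-lesioned saline had 2 (Arrb2 at 0.38 and Maoa at 0.53), against 14.1%. L-DOPA with zonisamide against non-lesioned saline had 1 (Maoa at 0.53), against 4.23%. Markers of serotonin neurons themselves were weak. Slc6a4, the serotonin transporter, was above background on 1 array, and Fev, the transcription factor of serotonin neurons, on 0 of 12. Tph2, the serotonin-making enzyme of neurons, was above background on all 12.

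Tph2 was at -5.00, -3.71 and -5.17 with L-DOPA and zonisamide, -3.88, -3.54 and -3.22 with L-DOPA, -4.39, -4.67 and -4.10 after lesioned saline, and -3.49, -3.86 and -4.87 after non-lesioned saline. The L-DOPA arrays lay above all lesioned saline arrays, in a comparison where the groups did not overlap for 22.4% of all features. The difference between L-DOPA with zonisamide and L-DOPA was -1.08 ± 0.43 (adjusted p = 0.337), and that between L-DOPA and lesioned saline was 0.84 ± 0.43 (adjusted p = 0.511). Ddc, the decarboxylase that turns L-DOPA into dopamine, was at 0.61, -0.18 and 0.68 with L-DOPA and zonisamide, 0.25, -0.50 and -0.01 with L-DOPA, 0.55, 0.05 and 0.57 after lesioned saline, and 0.13, 0.47 and -0.09 after non-lesioned saline. These are values of the brighter of 2 Ddc probes, whose groups overlapped in all comparisons. The dimmer Ddc probe averaged -3.04 with L-DOPA and zonisamide, -3.91 with L-DOPA, -2.93 after lesioned saline and -3.51 after non-lesioned saline.

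Maoa, a monoamine oxidase that breaks down serotonin and dopamine, was at -0.50, -0.64 and -0.09 with L-DOPA and zonisamide, -0.47, -0.56 and -0.17 with L-DOPA, -0.67, -0.84 and -0.83 after lesioned saline, and -1.14, -0.61 and -1.05 after non-lesioned saline. Both drug groups lay above lesioned saline without overlap, by 0.37 ± 0.20 with zonisamide (adjusted p = 0.687) and by 0.38 ± 0.20 without it (adjusted p = 0.521). Of all features, 18.1% and 22.4% did not overlap in those comparisons. Maob, the related enzyme of glia and serotonin neurons and an enzyme that zonisamide inhibits, lay between -0.74 and -0.54 with L-DOPA and zonisamide, between -1.08 and -0.56 with L-DOPA, between -0.77 and -0.48 after lesioned saline, and between -0.96 and -0.64 after non-lesioned saline.

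S100a10, also called p11, a protein that binds the 5-HT1B and 5-HT4 receptors and carries them to the cell surface, was at -0.55, -2.18 and -1.07 with L-DOPA and zonisamide, -1.08, 0.28 and -1.34 with L-DOPA, -1.22, -1.36 and -1.69 after lesioned saline, and -1.42, -1.88 and -1.57 after non-lesioned saline. L-DOPA was 0.91 ± 0.46 relative to non-lesioned saline (adjusted p = 0.418), and replicate 2 of L-DOPA was the highest of all arrays. Arrb2, the arrestin that ends receptor signalling, was at 1.15, 1.07 and 1.14 with L-DOPA and zonisamide, 1.34, 1.09 and 1.36 with L-DOPA, 0.90, 0.80 and 0.82 after lesioned saline, and 0.96, 0.90 and 0.79 after non-lesioned saline. Every drug array lay above every saline array, with 0.42 ± 0.13 for L-DOPA against lesioned saline (adjusted p = 0.228). Of all features, 22.4% did not overlap between L-DOPA and lesioned saline, and 18.9% between L-DOPA and non-lesioned saline. For L-DOPA with zonisamide these shares were 18.1% and 7.19%.

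The 3 other receptor genes of the list that were tested showed no separation. Htr1f, an inhibitory receptor, averaged -6.53 with L-DOPA and zonisamide, -6.00 with L-DOPA, -6.16 after lesioned saline and -6.28 after non-lesioned saline. Htr2b, a Gq-coupled receptor, averaged -4.01, -3.98, -3.81 and -3.93 in the same order of groups. Htr5b, the close relative of Htr5a that rodents have kept, averaged -5.67, -5.80, -5.84 and -5.53. Htr3b, the partner subunit of Htr3a, was above background on 1 array.

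The features whose levels over the 12 arrays were most like each member's were found by Pearson correlation among 11109 features with a symbol, given as a description that includes any difference in array quality. For Htr1d they were Pcmt1 (r = 0.98), Map2k6 (r = 0.97) and Entpd3 (r = 0.96), and for Htr1b they were Pstpip1 (r = 0.96), Dmkn (r = 0.95) and Map3k6 (r = 0.95). Htr2a had lower values, with Sp100 (r = 0.84), Gnb5 (r = 0.83) and Filip1 (r = 0.82). For Htr2c the nearest were Iars1, Impa1 and RGD1311745 (r = 0.92, 0.90 and 0.89), and for Htr3a Abl1, Rnf5 and Polrmt (r = 0.95, 0.94 and 0.92). For Htr4 they were Spag5, Npas4 and Ppp1r9a (r = 0.93, 0.89 and 0.89), for Htr5a Hnrnpa2b1, Zc2hc1c and Map6d1 (r = 0.88, 0.88 and 0.86), and for Htr6 Necab2, Tef and Mark2 (r = 0.93, 0.93 and 0.90).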

How the data were processed

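The authors read the arrays with Agilent Feature Extraction (10.7 per the submitters' processing notes, 10.7.3.1 per the file headers). Their deposited processed signal is an intensity with background subtracted, per the file headers, and is not scaled between arrays. Probes were named by matching accessions to RefSeq symbols: 17328 of 30367 matched 1 symbol and 13039 none. Spots marked as outliers were left out, the log2 signals of a probe's spots were averaged, and the 75th percentile of each array was subtracted. Testing was limited to probes that the scanner files mark as well above background (on 0.5 or more of the spots) throughout 1 or more groups. The probe with the highest mean stood for a gene, giving 19412 features.

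A linear model with 4 groups and 12 arrays was fitted (limma 3.58.1, R 4.3.3, data.table version 1.17.8), leaving 8 residual degrees of freedom. The 6 contrasts were two-sided, with Benjamini-Hochberg adjustment over all features and a threshold of 0.05. Errors are moderated standard errors unless given as SD. Each group was 3 animals, and the number of arrays limits the precision. The fit was tested on simulated data.

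The members and gene lists were chosen with earlier results of these data known. The rule for named genes took all members in every comparison, the set members of the pathway and marker lists, and the 3 features most like each member. Arrays lay on 5 slides. Equal replicate numbers of both drug groups shared a slide, with correlated deviations from the group means (0.37, 0.19 and 0.25). The main fit nevertheless used no pairing in any comparison, including the one between the drug groups. Replicate number entered only through the replicate block, an alternative fitted over all 12 arrays. Alternatives included quantile normalization of the main levels, and normexp correction with an offset of 50 followed by quantile normalization. Only the normexp setting stood in place of the main background correction and 75th percentile scaling. Further alternatives were other filters and probe rules, fewer groups, a trend with a robust prior, blocks for replicate and slide, choroid plexus covariates, and leaving out arrays. Both settings for the spots were added after seeing the data. The array's median spot and background brightness, an intensity per the file headers, was used for normexp alone.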

Additional observations from a re-analysis of the deposited data

Results flagged for a closer look

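Signals of genes left out of the comparisons were marked as above background on single lesioned-side arrays and on no non-lesioned array. Htr1a was at -5.62 on replicate 3 of lesioned saline, against -8.05 as its highest non-lesioned value, and 1 of its 2 spots carried this. Htr7 was at -6.15 on replicate 1 of L-DOPA with zonisamide, against -7.02 as its highest non-lesioned value. Htr3b was at -7.61 on replicate 2 of L-DOPA with zonisamide, against -8.14. Slc6a4 was at -7.04 on replicate 2 of lesioned saline, against -8.17, although a higher value of -6.40 on replicate 3 of L-DOPA with zonisamide was not marked as above background.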

How the results depend on the processing

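Of the 48 differences (8 receptors in 6 comparisons), 30 kept their direction under 16 other settings and 12 fits without 1 array, and 18 did not. None of those 18 had passed the test, and the cause of each turn was not tested. Calls among members in L-DOPA minus lesioned saline were 0 to 1 without 1 array, in L-DOPA with zonisamide minus L-DOPA 0 to 1, and in L-DOPA minus non-lesioned saline 0 to 2, each highest without replicate 1 of L-DOPA. In L-DOPA minus non-lesioned saline the 1 call was 0 with quantile normalization, 0 with normexp and quantile normalization together, 0 with no filter on dim probes, 0 with only the groups compared, 0 with the replicate block (Htr1d -1.62, adjusted p = 0.0859), 0 with slide as a fixed block, and 0 with Ttr or the choroid plexus mean as a covariate. The replicate block changed no other call.

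Over all features, leaving out 1 array gave 6 to 350 calls for L-DOPA against non-lesioned saline (main 225), 2 to 210 for L-DOPA against lesioned saline (main 84) and 0 to 253 for L-DOPA with zonisamide against L-DOPA (main 93). Under the other settings they were 0 to 313, 0 to 109 and 0 to 188.

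Turned values were as follows, in log2. With normexp and quantile normalization together, Htr1b and Htr3a were -0.12 and 0.44 for lesioned minus non-lesioned saline, Htr5a 0.022 for L-DOPA with zonisamide minus L-DOPA, Htr1b 0.26 and Htr3a -0.33 for L-DOPA with zonisamide minus lesioned saline, and Htr3a 0.11 and Htr6 0.011 for L-DOPA with zonisamide minus non-lesioned saline. With quantile normalization alone, Htr3a was 0.031 for L-DOPA minus lesioned saline, Htr5a 0.17 for L-DOPA with zonisamide minus L-DOPA, Htr1b 0.12 for L-DOPA with zonisamide minus lesioned saline, and Htr5a -0.11 for L-DOPA minus non-lesioned saline. With Ttr as a covariate, Htr5a was -0.25 for L-DOPA minus lesioned saline, 0.29 for L-DOPA with zonisamide minus L-DOPA, -0.30 for L-DOPA minus non-lesioned saline and -0.012 for L-DOPA with zonisamide minus non-lesioned saline. With the choroid plexus mean, Htr4 and Htr5a were -0.029 and 0.23 for L-DOPA with zonisamide minus L-DOPA, Htr5a -0.082 for L-DOPA minus non-lesioned saline and Htr3a 0.0025 for L-DOPA with zonisamide minus non-lesioned saline. Slide as a fixed block gave Htr3a 0.18 and Htr6 0.014 for L-DOPA with zonisamide minus non-lesioned saline. With the mean signal of spots Htr3a was 0.0077 for L-DOPA minus lesioned saline. Htr2c for L-DOPA with zonisamide minus L-DOPA was 0.46 with the mean of its probes, 0.48 without the arrays of spot spread over 20%, 0.31 with the mean signal of spots and 0.55 without spots over 4-fold apart, and minus lesioned saline it was 0.19, 0.36, 0.11 and 0.36.

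Leaving out 1 array, the ranges that crossed 0 were as follows. For lesioned minus non-lesioned saline Htr4 gave -0.43 to 0.23. For L-DOPA minus lesioned saline Htr3a gave -0.40 to 0.20. For L-DOPA with zonisamide minus L-DOPA, Htr2a gave -0.036 to 0.33, Htr2c -0.41 to 0.55, Htr4 -0.037 to 0.35 and Htr5a -0.44 to 0.34. For L-DOPA with zonisamide minus lesioned saline, Htr1b gave -0.17 to 0.070, Htr1d -0.052 to 0.32 and Htr2c -0.61 to 0.36. For L-DOPA minus non-lesioned saline Htr5a gave -0.23 to 0.49. For L-DOPA with zonisamide minus non-lesioned saline, Htr2a gave -0.35 to 0.018, Htr3a -0.32 to 0.24, Htr5a -0.34 to 0.43 and Htr6 -0.26 to 0.20. Leaving out the 5 arrays of spot spread over 20% gave no value against non-lesioned saline, whose 3 arrays were all among them. Signal near background limits Htr4, Htr5a, Htr1a and Htr7.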
